A study of Mus musculus with 15 samples.

Results

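The genes described here are 32 genes of inhibitory signalling by GABA, the main fast inhibitory transmitter of the forebrain. They comprise 16 receptor subunit genes, 5 genes for making, loading, breaking down or anchoring at GABA synapses, and 11 genes that mark or specify inhibitory interneurons. They were chosen by name: a member is any of these symbols that the array's gene names hold, and all 32 were found among 26117 genes with a probe above background. For each gene the brightest of its probes, by the mean over 15 arrays, gave the value. Hippocampal RNA was measured on 15 single-colour Agilent arrays, 1 per mouse, in a study of how learned fear of a place fades, where mice shocked in a box go back to it unshocked every 24 h and freeze less in time. All mice were male C57BL/6J animals, an inbred strain, and neither a mutation nor a drug is named for any group. The 5 control mice were never shocked (the design text has them placed in the context, the sample names call them naive), the 5 E1 mice were shocked and sampled 1 h after extinction trial 1, when freezing was high, and the 5 ELF mice were shocked and sampled 1 h after extinction trial 5, when freezing had fallen. The labels name no age.

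GABA opens pentameric chloride channels, the GABA-A receptors, which are built from alpha, beta and a further kind of subunit (gamma, delta, epsilon or theta), whereas rho subunits form channels of their own. It also acts through GABA-B receptors, which couple to G proteins and need the Gabbr1 and Gabbr2 products together. In the hippocampus GABA is released by sparse interneurons, which are told apart by the peptides and calcium-binding proteins they make and which shape the firing of the principal cells. In whole tissue a lower signal of an interneuron gene can come from fewer such cells or from less RNA per cell, and these cannot be told apart.

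Every value below is a log2 intensity relative to the 75th percentile of its array, called a level, and a difference of 1 is a fold of 2. Each probe has its own brightness, so levels of different genes are not compared. The probes on which the results turn are shown first, with coordinates of the mouse build mm7 and 5′ to 3′ as the array design gives them. Only the Gabrr2 probe is printed whole, since the design places it across an intron and a frame of its 60 bases is open. For the others, which could lie in untranslated sequence, the first 30 bases are given. No letters are capitalised because no part of a probe is singled out. The single Gabrr2 probe (chr4:33355893-33359758, plus strand) gave the largest differences from control, and the Gabrg1 probe (chr5:70123722-70123781, minus strand), spotted 10 times on each array, was the only one of the 32 that parted E1 from ELF without overlap.
Gabrr2: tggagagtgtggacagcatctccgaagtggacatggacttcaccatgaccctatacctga
Gabrg1: cttgctcattgttaaaggtgttagggagtt
Gad2: tttgtaatcacctcactcatcaaaactgtt
The Gad2 probe lies at chr2:22675289-22675347, plus strand. Probes of a gene did not always give the same pattern, and as examples, chosen after their values were seen, a pair of probes is shown for Gabra2, Gabbr1 and Lhx6.
Gabra2, brightest: acaggcagaaaacatcccgtgccaaaagag
Gabra2, probe 2: taatgacattatgataagttagacgtccca
Gabbr1, brightest: tacaatcatctctcaaaactactgcatctt
Gabbr1, probe 2: aagagaagtcccgactgttggagaaggaaa
Lhx6, brightest: catacctttcatgttgtgctttgtaaatgt
Lhx6, probe 2: atcacagcagcaatggctaattcagcttga
In that order these lie at chr5:70333336-70333395 and chr5:70330565-70330624 (minus strand), chr17:35225581-35225640 and chr17:35223769-35223827 (plus strand), and chr2:36089290-36089349 and chr2:36090997-36091054 (minus strand). Of 28 members with a promoter entry in RefSeq GRCm38.p6, 26 have a brightest probe on the strand of the gene there. Gad1 and Vip do not. The builds differ, and the cause was not tested.

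The arrays lay on 4 slides that do not match the groups. Slide 1 held controls 1 to 4, slide 2 held control 5 with E1 1, 2 and 3, slide 3 held E1 4 and 5 with ELF 3 and 4, and slide 4 held ELF 1, 2 and 5. The 75th percentile intensity ran from 1445 to 2929, and from 83.5% to 97.2% of spots were well above background. Some arrays stood apart: 46.4% of all genes were highest on ELF 2 and 32.5% were lowest on ELF 4. Among ELF arrays, 46.7% of genes were lower on both slide 3 arrays than on all slide 4 arrays, and 10.1% were higher. Markers of other cells differed between the groups too, with no allowance for slide. The mean level of 9 endothelial markers ran from -1.08 to -0.40 over control arrays, from -1.57 to -1.41 over E1 arrays and from -1.78 to -1.31 over ELF arrays, and Cldn5, Kdr, Flt1 and Emcn fell in ELF while Cldn5 and Kdr fell in E1. That of 10 choroid plexus markers ran from 1.30 to 1.97, from 1.14 to 1.72 and from -2.02 to 1.03 in the same order, with none past the threshold. The median difference of E1 from control was -0.61 for the endothelial and -0.26 for the choroid plexus markers. On slide 2 alone, beside control 5, these medians were -0.26 and -0.03. Of 12 thalamic and habenular markers, 1 (Ramp3) rose in E1, and their median difference was 0.27. In the lists for hippocampal principal neurons, striatum, cortex, astrocytes, oligodendrocytes and microglia no gene passed in any comparison, and all 16 principal neuron markers were above background on every array. The part of these cells in the results below was not tested.

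None of the 32 genes changed at a limma adjusted p under 0.05 over all genes in any of the 3 comparisons. Over all 26117 genes 0.188% passed for E1 versus control, 2.1% for ELF versus control and 0.00766% for ELF versus E1. Probes of Cck, Slc32a1 and Sst were saturated on all 5 ELF arrays, where a level has only a bound, so no difference of theirs that involves ELF is read. Among the other 29 genes, 1, 4 and 1 had an unadjusted p under 0.05 in the order of the comparisons above. The share of all genes under that limit is not given, so these counts are not read as few or many. The median difference of the 32 was 0.05, 0.02 and 0.01, beside 0.04, 0.10 and 0.05 over all genes, and 0.03, 0.05 and 0.02 without the 3 saturated genes. In this fit, which has no term for slide, the 95% interval of 28, 27 and 27 of the 32 lay within a fold of 2 in either direction. For 18, 20 and 20 it lay within a fold of 1.41. These counts include the 3 saturated genes. With slide as a random block, arrays of a slide had a correlation of 0.467, which these intervals do not allow for. The widest interval reached 1.37 to each side of the estimate, for the dim Gabrq gene, so a fold of 2 lay within it.

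**Figure D1:**
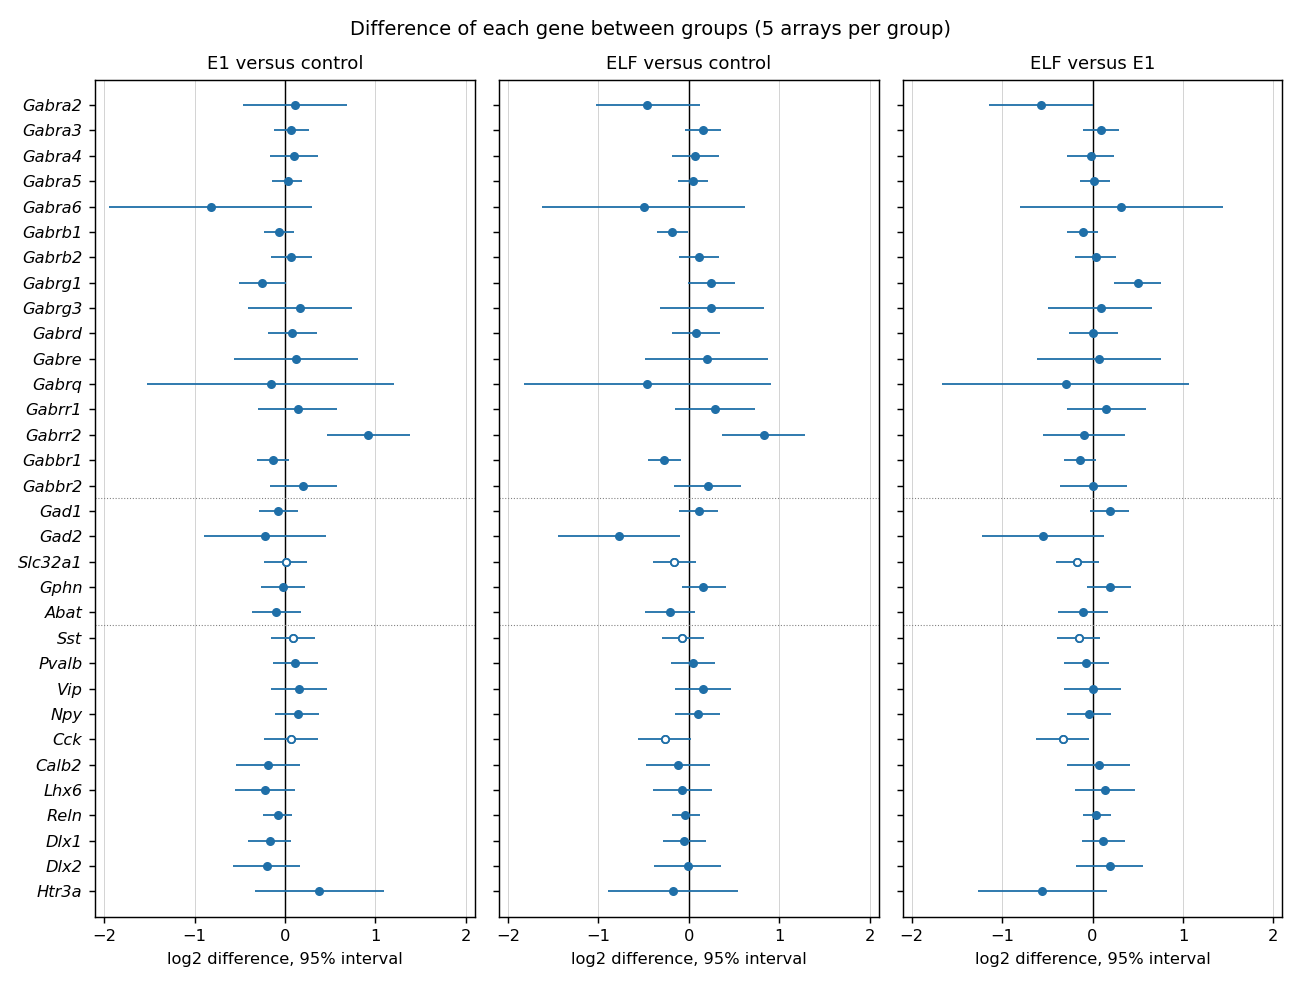
Difference in log2 level of each of the 32 genes in the 3 comparisons, with the 95% interval of the limma fit (5 arrays per group). Dotted lines part receptor subunits, GABA handling genes and interneuron genes, and open points mark the saturated Slc32a1, Sst and Cck probes; most intervals cross 0, and Gabrr2 has the largest positive differences from control, 0.92 and 0.83.

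Among the receptor subunits Gabrr2, the rho2 subunit of a class of GABA-gated channels best known from the retina, had the largest positive differences from control. The probe was dim, with a mean of -5.58 over controls, though above background on all 15 arrays. Its level was -5.74, -5.89, -5.85, -5.71 and -4.69 on controls 1 to 5. On E1 1 to 5 it was -4.66, -4.92, -4.83, -4.48 and -4.37, and on ELF 1 to 5 it was -4.82, -4.53, -4.90, -5.06 and -4.41. Controls 1 to 4 were low and control 5 lay within the range of both other groups, so the groups overlapped through 1 array. The difference was 0.92 for E1 versus control (SE 0.21, limma adjusted p = 0.0788) and 0.83 for ELF versus control (SE 0.21, adjusted p = 0.0555), a fold of 1.90 and 1.78, and -0.09 for ELF versus E1.

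The split in Gabrr2 followed the slide as well as the group. All 4 slide 1 arrays lay below the other 11 arrays, a pattern met by 4.11% of all genes and by 1 of the 32. On slide 2, control 5 stood beside 3 E1 arrays and the difference was -0.12 in the opposite direction. With slide as a fixed block the differences from control were -0.12 in E1 and -0.67 in ELF (adjusted p = 1 and 0.116), and with slide as a random block they were 0.51 and 0.31 (adjusted p = 1 and 0.999). Without control 5 they were 1.15 (adjusted p = 0.000588, with 4.28% of all genes past the threshold) and 1.05 (adjusted p = 0.00152, 8.08% of all genes). The replicate numbers of E1 and control were taken as pairs from the data only. With replicate number as a block, Gabrr2 in E1 versus control was at a limma adjusted p of 0.0559 in the fit of 15 arrays, where 0.0459% of all genes passed. In a fit of only the 10 arrays of E1 and control, the adjusted p was 0.0172 and 12.1% of all genes passed. In the authors' deposited values the ELF difference was 0.37. Slide and group could be told apart here only through control 5.

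**Figure D2:**
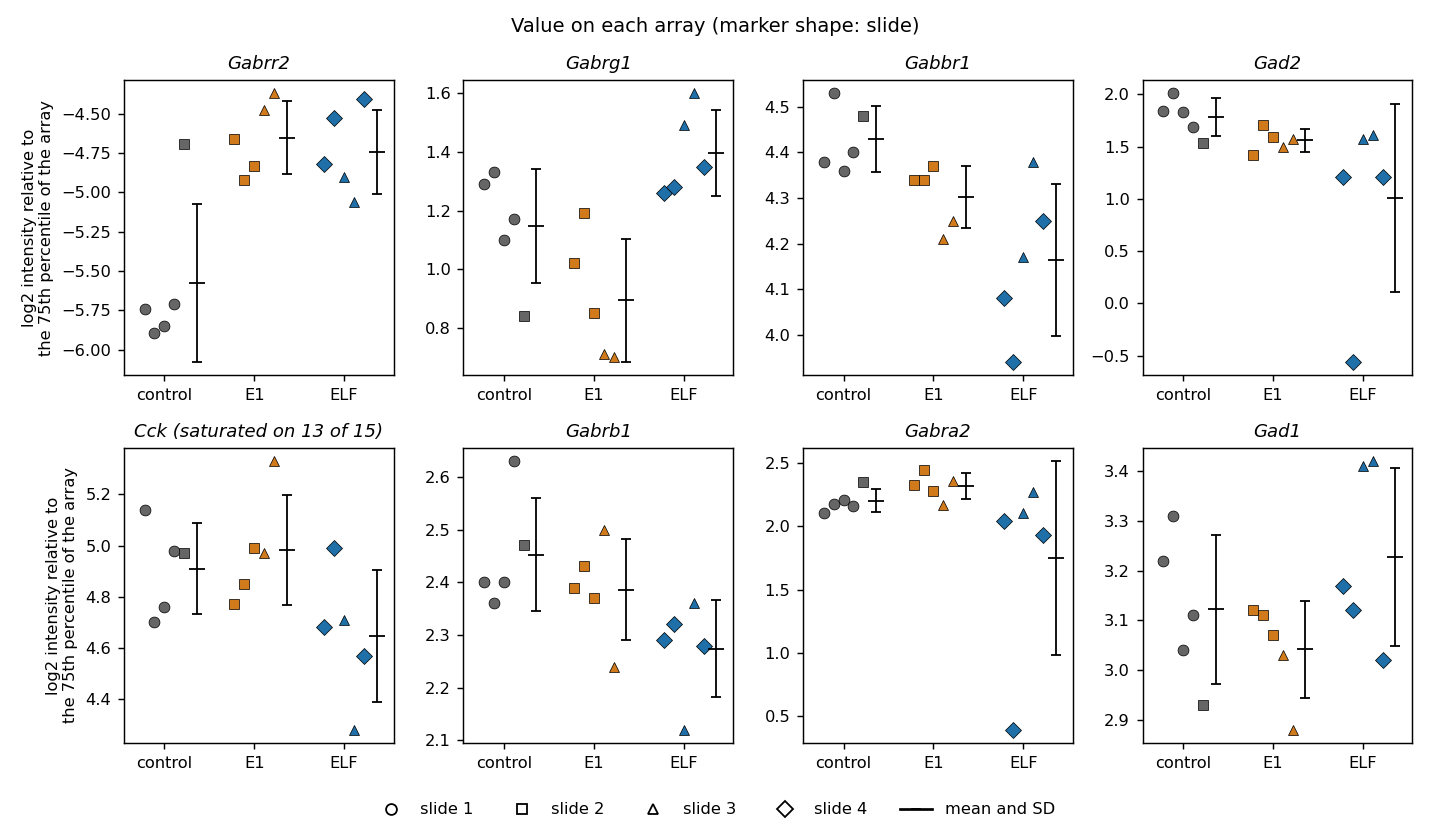
Level on each array (log2 intensity relative to the 75th percentile of the array) for the 8 genes with the smallest unadjusted p; marker shape gives the slide, colour the group, and bars the mean and SD over 5 arrays. The vertical scale differs between panels; Gabrr2 is low on the 4 slide 1 controls and near -4.69 on control 5, the Cck probe is saturated on 13 of the 15 arrays, and Gabrg1 is the one gene of the 32 whose E1 and ELF arrays do not overlap.

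Gabrg1 encodes the gamma1 subunit of GABA-A receptors. It was 1.29, 1.33, 1.10, 1.17 and 0.84 on controls 1 to 5, then 1.02, 1.19, 0.85, 0.71 and 0.70 on E1 1 to 5, and 1.26, 1.28, 1.49, 1.60 and 1.35 on ELF 1 to 5. Every ELF array was above every E1 array, while the controls overlapped both groups. The ranges of E1 and ELF did not overlap for 1 of the 32 genes and for 2.04% of all genes; no member had separate ranges in E1 versus control (3.71% of all genes) or ELF versus control (4.74%). ELF exceeded E1 by 0.50 (SE 0.12, fold 1.42, limma unadjusted p = 0.000963, adjusted p = 0.263). E1 differed from control by -0.25 and ELF by 0.25 (adjusted p = 0.398 and 0.233). On slide 2, however, control 5 read 0.84 beside E1 arrays at 1.02, 1.19 and 0.85, and E1 was higher by 0.18. On slide 3 the E1 arrays read 0.71 and 0.70 and the ELF arrays 1.49 and 1.60, a difference of 0.84. The 10 spots of the probe on an array had an SD between 0.06 and 0.15, against 0.20, 0.21 and 0.14 between arrays of control, E1 and ELF.

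With slide as a fixed block the Gabrg1 difference between ELF and E1 was 0.84 (SE 0.13, adjusted p = 0.0103). That fit rests on the 2 E1 and 2 ELF arrays of slide 3, which include ELF 4, and 19.3% of all genes passed in it. It called 10 of the 32 genes, or 9 without the saturated Cck. Gabrg1, Gad1 (0.46), Lhx6 (0.62) and Dlx2 (0.75) were higher in ELF, and Gabrq (-2.24), Gabre (-1.05), Gabrg3 (-0.88), Gabrr1 (-0.59) and Gabrr2 (-0.56) were lower. Over all genes that fit had 699 higher and 4344 lower, with a median of -0.18. On slide 3 both ELF arrays were above both E1 arrays for 12 of the 32 (16.8% of all genes) and below them for 9 (41.7% of all genes). With slide as a random block Gabrg1 was at 0.62 with an adjusted p of 0.415, and no gene passed. For ELF versus control, the fixed block gave Gabrg1 1.03 (adjusted p = 0.0528), the smallest among the 32, with 0.325% of all genes past the threshold; the groups share no slide, so it is chained through slides 2 and 3.

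Gabrg1 lies in a cluster of GABA-A genes on chromosome 5, with probes of Gabra2, Gabra4 and Gabrb1 between 70123722 and 71507347 in mm7. In the fit without a slide term its neighbours had other patterns. Gabra4, the alpha4 subunit that joins delta in receptors outside synapses, ran from 3.47 to 3.80 over controls, from 3.48 to 3.88 over E1 and from 3.40 to 3.96 over ELF arrays, and differed from control by 0.10 and 0.07. With slide as a fixed block Gabra4 differed from control by 0.34 in E1 and 0.71 in ELF (limma adjusted p = 0.105 for ELF). ELF then exceeded E1 by 0.37 (limma adjusted p = 0.0853), in the same direction as for Gabrg1. Gabrb1, the beta1 subunit, was 2.40, 2.36, 2.40, 2.63 and 2.47 in control. In E1 it was 2.39, 2.43, 2.37, 2.5 and 2.24, and in ELF 2.29, 2.32, 2.12, 2.36 and 2.28. The ELF arrays were at or below 2.36, where the lowest control also lay. Gabrb1 in ELF differed from control by -0.18 (SE 0.08, unadjusted p = 0.0399, adjusted p = 0.197 with limma) and from E1 by -0.11.

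Gabra2, the alpha2 subunit, was 2.11, 2.18, 2.21, 2.16 and 2.35 in control and 2.33, 2.45, 2.28, 2.17 and 2.36 in E1. On the ELF arrays it was 2.04, 0.39, 2.11, 2.27 and 1.93. A single array, ELF 2, carried the low ELF mean of 1.75. The difference was -0.57 for ELF versus E1 (SE 0.27, limma adjusted p = 0.517), and -0.23 without ELF 2. The other Gabra2 probes did not show the drop: probe 2, a few kilobases away, read 1.78 on ELF 2 and 1.71 to 2.05 on the other ELF arrays, and probe 3 read 1.90 there, its highest value in the group.

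Gabbr1, a GABA-B subunit that binds the transmitter, had the smallest p of the receptor genes after those of the rho2 and gamma1 subunits. It was 4.38, 4.53, 4.36, 4.40 and 4.48 in control and 4.34, 4.34, 4.37, 4.21 and 4.25 in E1. In ELF it was 4.08, 3.94, 4.17, 4.38 and 4.25. All but 1 of the ELF arrays, ELF 4, lay below every control. ELF differed from control by -0.27 (SE 0.08, unadjusted p = 0.00675, adjusted p = 0.0923 with limma), and by -0.32 without ELF 4 (adjusted p = 0.0228), a fit in which 2 of the 32 genes (the other being Gabrr2, 0.91) and 19.6% of all genes passed. Blocked by slide the ELF difference was -0.08 (adjusted p = 0.82). The other Gabbr1 probes pointed the other way: differences of ELF from control were 0.08, 0.20 and 0.65 for probes 2, 3 and 4. Gabbr2, the partner subunit that couples to the G protein, differed by 0.20 and 0.21 from control on its brightest probe, and by 0.01 and -0.36 on a second probe.

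Of the other subunits, Gabra3, Gabra5, Gabrb2 and Gabrd differed between any of the groups by 0.16 or less in size on their brightest probes. A second Gabra5 probe differed by -0.27 in ELF versus control and -0.33 in ELF versus E1. Its limma adjusted p over all kept probes was 0.237 and 0.464. A second Gabrb2 probe, above background on 5 of the 15 arrays, differed by 0.63 and 0.55 in the same order. For a second Gabra3 probe the differences were 0.08 and 0.03. Gabra5, the alpha5 subunit, which in hippocampus carries much of the tonic inhibition of pyramidal cells, had the narrowest values of the 4 in E1, 1.89 ± 0.03 (SD, n = 5), against 1.87 ± 0.13 in control and 1.91 ± 0.10 in ELF. Gabrd, the delta subunit of extrasynaptic receptors, was 1.69 ± 0.11, 1.77 ± 0.31 and 1.78 ± 0.07. Gabrg3, Gabre, Gabrq and Gabrr1, for the gamma3, epsilon, theta and rho1 subunits, were lower on both slide 3 ELF arrays than on all slide 4 ELF arrays, as was Gabrr2. These are 5 of the 32, against 46.7% of all genes. The opposite pattern, higher on slide 3, was met by 10 of the 32 and 10.1% of all genes, with Gabra2, Gabra3, Gabra4, Gabrb2 and Gabrg1 among the receptor genes. Gabre, for example, was -2.32, -1.88 and -2.13 on ELF 1, 2 and 5, and -3.43 and -3.94 on ELF 3 and 4, while the controls ran from -3.10 to -2.71. Gabrq was above background on 12 of the 15 arrays, and Gabra6, the alpha6 subunit typical of cerebellar granule cells, on 13. Gabra6 ran from -5.54 to -3.08 over controls, from -5.91 to -4.61 over E1 and from -7.05 to -4.56 over ELF arrays.

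**Figure D3:**
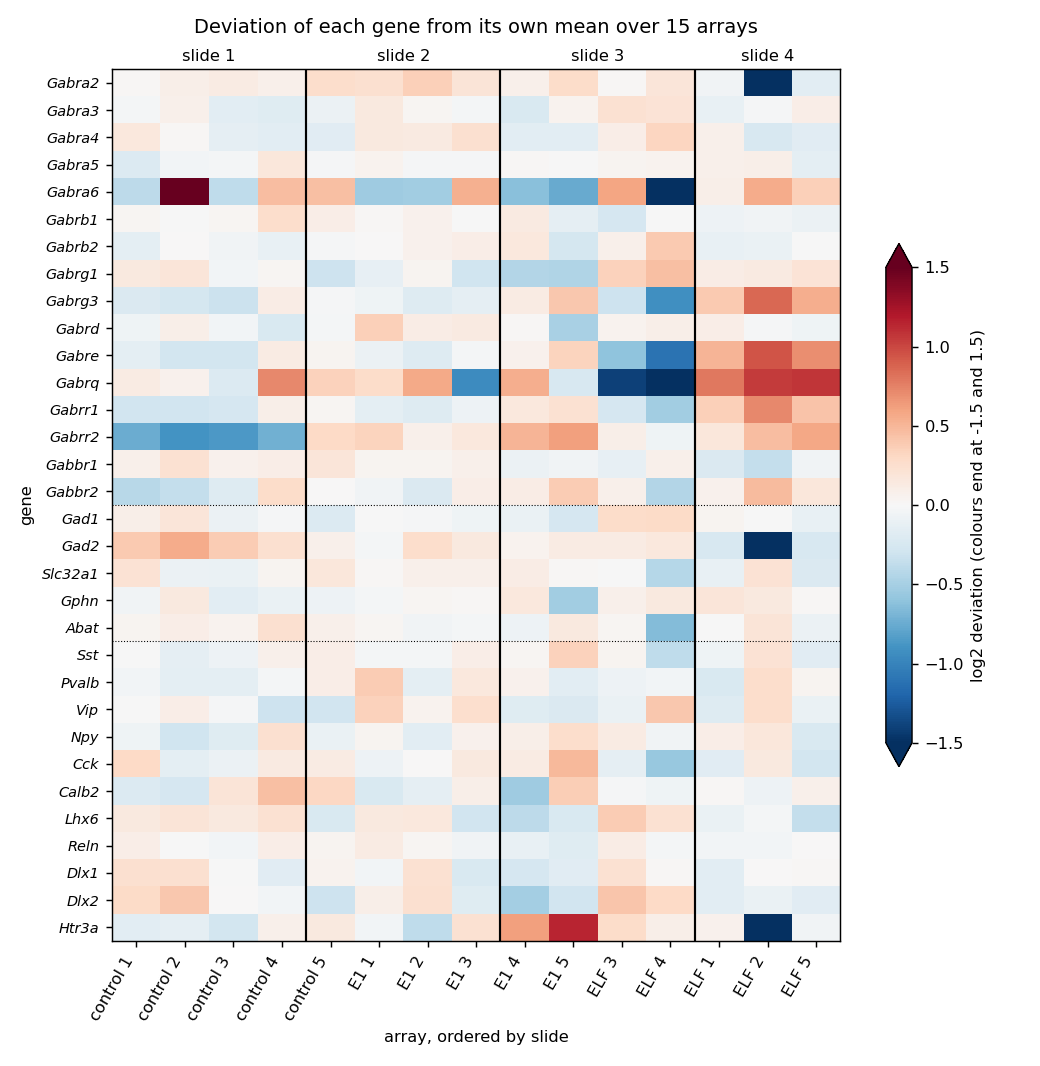
Deviation of each of the 32 genes from its own mean over the 15 arrays (log2 scale, colours end at -1.5 and 1.5), with arrays ordered by slide and group. Low values of Gabra2, Gad2 and Htr3a fall on ELF 2, Gabrr2 is low on all 4 slide 1 arrays, and Gabre, Gabrg3 and Gabrq differ between the ELF arrays of slides 3 and 4.

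Of the 5 GABA handling genes, Gad1 and Gad2 encode both forms of glutamate decarboxylase, the enzyme that makes GABA. Gad1 was 3.22, 3.31, 3.04, 3.11 and 2.93 in control and 3.12, 3.11, 3.07, 3.03 and 2.88 in E1. In ELF it was 3.17, 3.12, 3.41, 3.42 and 3.02, highest on the slide 3 arrays ELF 3 and 4, and the groups overlapped. ELF differed from E1 by 0.19 (SE 0.10, limma adjusted p = 0.571), and a second Gad1 probe differed between ELF and control by 0.11, as the brightest one did. Like the brightest one, the second probe is placed on the strand opposite to the RefSeq gene.

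Gad2 was 1.84, 2.01, 1.83, 1.69 and 1.53 in control and 1.42, 1.71, 1.59, 1.5 and 1.57 in E1. Over the ELF arrays the level was 1.21, -0.56, 1.57, 1.61 and 1.21. ELF 2 stood far below the others. Without it ELF differed from control by -0.38, and with it by -0.77 (SE 0.31, unadjusted p = 0.0277, adjusted p = 0.167 with limma). The ELF arrays of slide 4, which are ELF 1, 2 and 5, were all below those of slide 3. With slide as a fixed block ELF differed from control by 0.1 and from E1 by 0.06 (limma adjusted p = 0.947 and 0.942). Gad2 has no other probe on the array, and Gad1 on ELF 2 was 3.12, within the range of the other arrays. Slc32a1, the transporter that loads GABA into vesicles, was saturated on 9 of 15 arrays, all 5 ELF arrays among them, and on 2 of 5 arrays in each other group, where E1 differed from control by 0.01. Gphn, the gephyrin scaffold that anchors receptors at the synapse, differed by -0.02, 0.16 and 0.19 in the order E1 versus control, ELF versus control and ELF versus E1. Abat, the transaminase that breaks GABA down, differed by -0.10, -0.21 and -0.11, and was 2.71 on ELF 4 against 3.28 to 3.56 on the other ELF arrays.

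None of the 11 interneuron genes passed in the fit without a slide term. There, differences from control of the 9 without saturation ran from -0.22 to 0.38 in E1 and from -0.17 to 0.16 in ELF. With slide as a fixed block they ran from -0.4 (Calb2) to 0.5 (Vip) in E1. In ELF they then ran from -0.91 (Htr3a) to 1.1 (Dlx2), and none of the 9 passed against control. Cck, a peptide of basket cells that principal cells also make, was 5.14, 4.70, 4.76, 4.98 and 4.97 in control and 4.77, 4.85, 4.99, 4.97 and 5.33 in E1. The ELF arrays read 4.68, 4.99, 4.71, 4.28 and 4.57. The probe was saturated on 13 of the 15 arrays. Its level was highest on E1 5, whose 75th percentile intensity of 1445 was the lowest, and lowest on ELF 4, where 2929 was the highest. No group difference is read from this probe. A second Cck probe differed between ELF and E1 by 0.15 (SE 0.34) and between ELF and control by 0.07.

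Sst, the peptide of dendrite-targeting interneurons, had levels of 4.71 ± 0.10, 4.80 ± 0.16 and 4.64 ± 0.22 (SD, n = 5) for control, E1 and ELF, and was saturated on all 5 ELF arrays and 1 E1 array. Pvalb, the calcium-binding protein of fast-spiking basket cells, was -0.44 ± 0.10, -0.32 ± 0.23 and -0.39 ± 0.18. The 95% intervals of its differences reached from -0.13 to 0.36 in E1 and from -0.20 to 0.29 in ELF against control. Vip, the peptide of interneurons that inhibit other interneurons, was 0.24 ± 0.18, 0.40 ± 0.25 and 0.40 ± 0.26. Npy, a peptide of neurogliaform and other cells, was 0.31 ± 0.20, 0.44 ± 0.15 and 0.41 ± 0.16. In the fit without a slide term, none of the differences of Pvalb, Vip or Npy had an unadjusted p under 0.05. Reln, the secreted protein of Cajal-Retzius and neurogliaform cells, had the smallest spread of the interneuron genes in control, with 0.90 ± 0.06, 0.82 ± 0.12 and 0.86 ± 0.06, and was spotted 10 times per array.

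Calb2, which encodes calretinin and marks interneuron-selective cells and, in mouse, hilar mossy cells, varied between mice within control and E1. Its brightest probe was -0.67, -0.72, -0.28, -0.02 and -0.16 in control and -0.70, -0.60, -0.38, -1.0 and -0.10 in E1. In ELF it was -0.45, -0.55, -0.49, -0.54 and -0.40. Its 3 probes moved together: all 3 were lowest of the 15 arrays on E1 4 and high on control 4 and on E1 5, which shared slide 3 with E1 4. The SD over controls was 0.31, over E1 0.34 and over ELF arrays 0.06 on the brightest probe, while probe 3 ran from -2.44 to -1.72 over ELF arrays. The difference of ELF from control was -0.12, -0.08 and -0.14 on the 3 probes.

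Lhx6, a transcription factor of interneurons from the medial ganglionic eminence, differed from control by -0.22 in E1 and -0.07 in ELF on its brightest probe, and by 0.81 and 0.74 on a dimmer probe (limma unadjusted p = 0.00355 and 0.00666). The dimmer probe was -3.73, -4.31, -3.81, -3.30 and -2.76 on controls 1 to 5, while the E1 and ELF arrays ran from -3.26 to -2.48. As with Gabrr2, control 5 was the one control among the values of the other groups. Dlx1 and Dlx2, neighbouring homeobox genes of interneuron precursors, differed by -0.17 and -0.20 in E1 and by -0.05 and -0.01 in ELF. Htr3a, the serotonin receptor of interneurons from the caudal ganglionic eminence, was 1.51 ± 0.18 in control and 1.89 ± 0.59 in E1, where E1 4 and E1 5 read 2.20 and 2.72. The ELF arrays read 1.64, -0.02, 1.85, 1.67 and 1.53, and ELF 2 was again the low array. The E1 difference of 0.38 was 0.18 without E1 5, and the ELF difference from control was -0.17 with ELF 2 and 0.17 without it. By a gap to the nearest array that exceeded 0.71 of the group's range, Gabra2, Gad2 and Htr3a of the 32 were set apart as low on ELF 2, as were 2.88% of all genes.

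**Figure D4:**
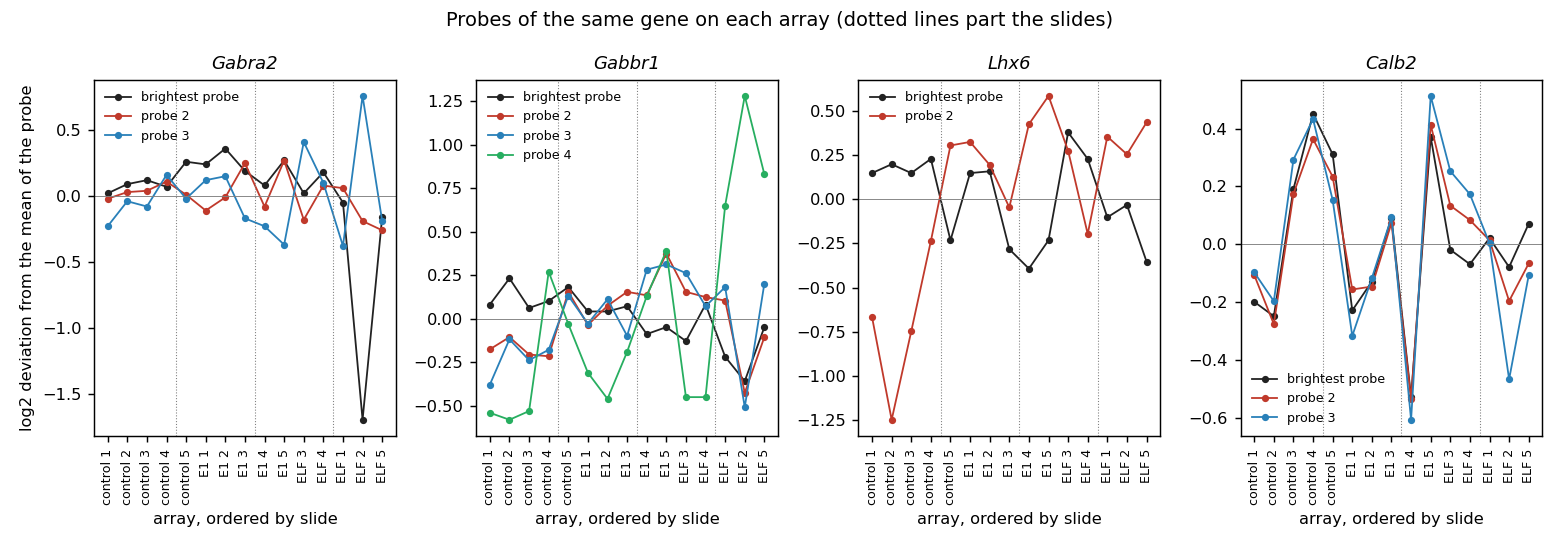
Deviation of each kept probe of Gabra2, Gabbr1, Lhx6 and Calb2 from its own mean (log2 scale) on the 15 arrays, ordered by slide. The 3 Calb2 probes follow each other, whereas the brightest Gabra2 probe alone of its gene drops on ELF 2, and the second Lhx6 probe is low on slide 1, where the brightest one is not.

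Of 55 probes of the 32 genes, 53 were kept and 13 genes had more than 1. None of the 53 passed when all 38457 kept probes were tested by limma. Among those 13 genes the probes had differences of both signs in 6 for E1 versus control, 9 for ELF versus control and 8 for ELF versus E1.

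The wider GABA pathway, from receptor traffic to chloride transport, was also counted. Of 32 measured pathway genes outside the members, none passed in any comparison, and 0, 5 and 7 had an unadjusted p under 0.05 for E1 versus control, ELF versus control and ELF versus E1. The share of all genes under that limit is not given, so these counts are not read as few or many. The 32 include saturated probes: Gabarapl1 on all 15 arrays, and Nsf on 5 control, 4 E1 and 4 ELF arrays. The medians of the 32 were 0.02, -0.01 and 0.04, beside the 0.04, 0.10 and 0.05 of all genes. The smallest adjusted p, named after its value was seen, was that of Aldh5a1, which breaks down a product of GABA, with 0.33 in ELF versus control (limma adjusted p = 0.0518). Slc12a5 (KCC2), which keeps neuronal chloride low so that GABA inhibits, is among the genes counted but was saturated on all 15 arrays, so no difference is given. Slc12a2 (NKCC1), which carries chloride into cells, differed by -0.06 and -0.33 (adjusted p = 0.905 and 0.193). Slc6a11 (GAT3), a GABA transporter of astrocytes, differed from control by 0.14 in E1 and -0.16 in ELF (adjusted p = 0.749 and 0.539).

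Of 33 measured interneuron genes outside the members, 1 passed, in ELF versus control, where 2.1% of all genes did. The medians were -0.01, 0.08 and 0.05 in the 3 comparisons, beside 0.04, 0.10 and 0.05 over all genes. Cxcl14, a chemokine found in a class of interneurons at the border of the hippocampal layers, rose by 0.30 in ELF versus control (SE 0.07, limma adjusted p = 0.0400). Its levels were 2.52 ± 0.08, 2.66 ± 0.06 and 2.83 ± 0.06 (SD, n = 5) for control, E1 and ELF. Its ELF arrays, from 2.75 to 2.89, all lay above the controls, from 2.43 to 2.63, and no slide held both groups. Calb1, the calbindin of granule cells and some interneurons, differed by 0.21 and 0.23 from control (adjusted p = 0.343 and 0.147), and Nos1, the neuronal nitric oxide synthase, by -0.04 and -0.01.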

How the data were processed

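Per the file headers, the scanner software was Agilent Feature Extraction, version 9.5.3.1, and the processed intensity deposited by the authors was already background-subtracted and detrended. The files' flags, scored 0 or 1, mark spots well above background, saturated or outlying. The authors' deposited value table, on a log2 scale and used as an alternative, tracked log2 mean intensity (r of at least 0.9958 over spots); how it was normalized is not stated in the labels or headers used. Per the submitters' processing notes, limma was used. Per the labels' protocols, RNA integrity numbers were 9 to 10.

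Control and outlier spots were left out. On each array, the 75th percentile of the log2 processed intensity was subtracted, spots were averaged per probe, and probes well above background on at least 5 of 15 arrays were kept. The brightest of the probes that share a gene name stood for the gene. Groups came from the sample labels, and the labels call the samples biological replicates. All 15 arrays entered 1 two-sided fit without covariates by lmFit and eBayes of limma (version 3.58.1, under R 4.3.3), with Benjamini-Hochberg adjustment over 26117 genes and a threshold of 0.05. The fit and its adjustment were tested on simulated gene values with independent noise, without slide effects or saturation. The steps before the fit were not tested in this way. The number of arrays limits the precision of all comparisons, and signal over background that of dim genes. Saturation leaves Cck, Slc32a1, Sst, Slc12a5, Gabarapl1 and Nsf without a readable level on some or all arrays. Some genes of the marker lists were saturated too and stayed in the counts and medians of their lists.

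The members, the lists of related and marker genes and the tests were chosen with earlier results of these data known. Named were all 32 members, with every array's value for the 8 of smallest p, called genes of the related lists, Slc12a5, Slc12a2, Slc6a11, Calb1 and Nos1, and at most 3 called genes of a marker list in a comparison, save that Emcn is named as well to complete a count of 4 endothelial genes. A further gene that the rule names is not reported here. Probes other than the brightest were named after their values were seen, and Gabarapl1 and Nsf are named for their saturation. Slides were read from the array identifiers. The labels number the samples 1 to 5 in each group. Deviations of same-numbered arrays from their group means had correlations of 0.142 to 0.299 between control and E1, all above 0.1, which was taken as pairing. This pairing is an assumption from the data only. The E1 array that matched best had the same number for controls 4 and 5, but not for controls 1, 2 and 3. Between control and ELF they ran from -0.435 to 0.311, and between E1 and ELF from -0.4 to 0.17. Alternatives were other background corrections and scalings, the filter, other probes, slide and replicate blocks, and leaving out each array.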

Additional observations from a re-analysis of the deposited data

Results flagged for a closer look

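Among the 32 genes in 3 groups of 5 arrays, 10 of 96 gene and group pairs held an array far from the other 4, by a gap to the nearest array divided by the range. Chance passes that limit in about 1 in 20 groups, and over all genes 6.06% of control, 7.83% of E1 and 9.16% of ELF groups passed. Of the 10, 3 fell on ELF 2: Gabra2 was 0.39 against 1.93 to 2.27 on the other ELF arrays, Gad2 was -0.56 against 1.21 to 1.61, and Htr3a was -0.02 against 1.53 to 1.85. On control 5, the only control on slide 2, Gabrr2 was high at -4.69 against -5.89 to -5.71, and Lhx6 was low at 0.39 against 0.77 to 0.85. Gabra6, which was not above background on every array, was high on E1 3 at -4.61 against -5.91 to -5.67 and low on ELF 4 at -7.05 against -5.06 to -4.56. Smaller gaps were met by Gphn on E1 5 (1.11 against 1.60 to 1.79), Gabra5 on ELF 5 (1.74 against 1.93 to 1.98) and Reln on ELF 3 (0.97 against 0.81 to 0.86). The causes were not tested.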

How the results depend on the processing

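The count of called members, 0 in each comparison, became 1 in E1 versus control under quantile normalization (adjusted p of Gabrr2 0.0461), scaling to the array median (0.0411) and the replicate block with only the 10 arrays of the 2 groups (0.0172, chosen after seeing the data). In ELF versus control it became 1 under scaling to the array median (0.0379), the authors' value table (0.0492), a filter of all 15 arrays above background (0.0451) and the replicate block (0.0482, with 215 genes called in all), each time through Gabrr2. With slide as a fixed block it became 10 in ELF versus E1 (9 without the saturated Cck), and Gabrg3, Gabre and Gabrr1 turned from 0.09, 0.07 and 0.15 to -0.88, -1.05 and -0.59. The cause was not tested. With 1 array left out the counts ran from 0 to 1, 0 to 2 and 0 to 0 in the order E1 versus control, ELF versus control and ELF versus E1. The all-gene counts of 49, 548 and 2 ran from 0 to 3148, 0 to 5123 and 0 to 5043 over all settings. Scaling to the array median moved the ELF versus control median of all genes from 0.10 to 0 and that of the members from 0.02 to -0.08. With slide as a fixed block these ELF versus control medians were -0.22 and -0.07. In every setting the members' medians moved by less than the spread between arrays. Of 2809 settings of single members' differences, 2650 kept the side of the threshold and moved by less than the spread between arrays, 138 moved by more, 18 passed the threshold and 3, named above, passed it with the sign turned. In all, 192 changed sign, called or not, 73 of them from a difference over 0.1 in size; with the fixed slide block 33 of 96 did, such as Gabre in ELF versus control, from 0.20 to -1.20. The replicate block changed no other call. E1 and control numbers were taken as pairs from the data only, while those of ELF are shared numbers only.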
